A study of Homo sapiens with 2 samples.

Results

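The genes described here encode the machinery that carries nuclear-encoded proteins into mitochondria and folds or cleaves them once inside. The set held 38 genes, named by the complex or step they serve, out of 19820 protein-coding genes of the annotation. They were read in 2 lists of NRF-1 peaks from the human glioblastoma cell line U251. The cells had received either a control siRNA (siControl) or an siRNA directed at the transcriptional cofactor AATF (siAATF). Each condition was represented by 1 list, so nothing below has a replicate, no difference between the conditions could be tested, and the effect of AATF depletion cannot be told apart from any other difference between the 2 libraries. There were 18014 peaks in siControl and 18454 in siAATF. The number of reads behind each list was unknown. Both libraries were made with the same NRF-1 antibody by ChIPmentation, in which the transposase Tn5 adds the sequencing adapters to the precipitated chromatin. No input or IgG library was named, so NRF-1 binding and the general accessibility of a promoter to the transposase cannot be told apart by these values.

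Most mitochondrial proteins are made in the cytosol as precursors. The TOM complex forms the common entry gate of the outer membrane, and the SAM complex inserts barrel-shaped proteins there. Behind the gate, the small TIM chaperones and the MIA oxidative pathway serve the intermembrane space, TIM23 and TIM22 are the translocases of the inner membrane, and the PAM motor pulls precursors into the matrix. In the matrix, peptidases remove the targeting sequence and the HSPD1 and HSPE1 chaperonin folds the product. NRF-1 is a transcription factor known for binding GC-rich promoters of nuclear genes for mitochondrial proteins through a palindromic site.

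A peak was counted for a gene if any base of it lay within 1 kb of the start of a protein-coding transcript of that gene. Of the 38 genes, 36 had an NRF-1 peak there in the siControl list (94.7%, exact 95% interval 82.3 to 99.4), beside 61% of all coding genes. The same 36 genes had one in the siAATF list, where the share of all coding genes was 60.6%. A peak in both lists was held by 59.4% of all coding genes. The intervals cover counting over genes only, since genes are not replicates of a condition. The genes without a peak were TOMM40L and TIMM23, 1 of the 8 TOM genes and 1 of the 8 genes of the inner membrane translocases.

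Most of these peaks lay over the canonical transcript start. It was inside the peak for 34 of 36 genes in siControl (94.4%, 81.3 to 99.3), beside 83.6% of all coding genes with a promoter peak, and for 33 in siAATF, beside 84.7%. In siControl the peak spanned the whole of exon 1 for 29 genes (80.6%, 64 to 91.8), beside 66.2%, and reached into intron 1 for 29, beside 66%. It covered the start codon for 31 genes (86.1%, 70.5 to 95.3), beside 49.7%. The midpoint of the siControl peak lay at a median of −17.5 bp from the nearest coding start, but single genes ranged from −654 bp (TOMM6) to 716 bp (HSPD1). The median width was 834 bp in siControl (lowest 345, highest 1362), beside 854 bp over all coding genes with a promoter peak, and 870 bp in siAATF, beside 866 bp.

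**Figure D1:**
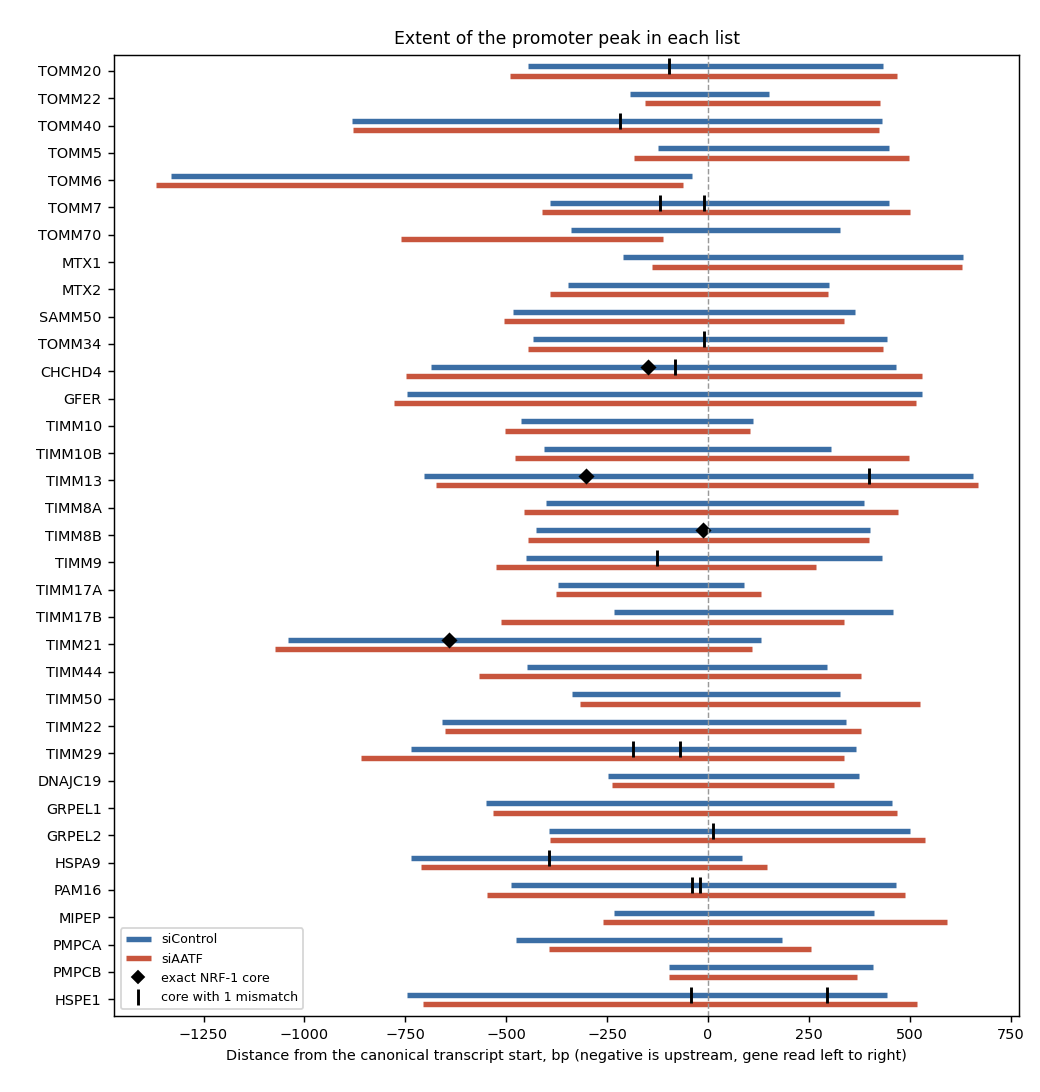
Extent of the promoter peak of 35 import and folding genes in the siControl list (blue) and the siAATF list (red), in bp from the canonical transcript start (dashed line), with each gene read from left to right. HSPD1 is left out because its chosen peak lies at a distant start. Diamonds mark the exact NRF-1 core and ticks the core with 1 mismatch in the siControl peak. The paired bars of each gene overlap, with TOMM70 as the pair that overlaps least (229 bp). Other pairs also differ in extent, such as TOMM22, at 345 bp in siControl and 584 bp in siAATF.

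The palindromic core of the NRF-1 site, GCGCATGCGC, was searched in the hg19 sequence of each peak on both strands, allowing up to 1 mismatch. It was present in the siControl peak of 14 of the 36 genes (38.9%, 23.1 to 56.5), beside 23.9% of all coding genes with a promoter peak. The siAATF peaks of 14 genes held it, beside 24%. An exact core was present for 4 genes (11.1%, 3.11 to 26.1), beside 3.88% in siControl and 3.96% in siAATF. A control palindrome of equal base content and equal number of CpG steps, CGGCATGCCG, was found with up to 1 mismatch in the siControl peak of 1 gene, beside 3.68%, and in the siAATF peak of 0, beside 3.56%. The intervals of the members' shares included the values of all coding genes for the core at either stringency.

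The 4 exact cores are printed here because they are the sites closest to the known palindrome, each with 10 bases of flank on either side, read 5′ to 3′ on the strand of the gene with the core in capitals. TIMM21 is a regulatory subunit of TIM23, and its site lay at chr18:71815102-71815131 on the plus strand, with the core centred at −642 bp from the canonical start, upstream of it and outside coding transcripts. TIMM8B is a small TIM chaperone, and its site lay at chr11:111957477-111957506 on the minus strand, at −12 bp from the canonical start and within the coding sequence of a longer TIMM8B transcript. The site of the small TIM chaperone TIMM13 lay at chr19:2427871-2427900 on the minus strand, at −302 bp and outside coding transcripts. CHCHD4 is the oxidoreductase that drives the MIA pathway, and its site lay at chr3:14166503-14166532 on the minus strand, at −148 bp and outside coding transcripts. The peaks holding the exact cores of TIMM21, TIMM8B and CHCHD4 also lay at the promoters of FBXO15, SDHD and TMEM43, respectively, in both lists. Those peaks and their sites cannot be assigned to either gene alone.
TIMM21: caccccttatGCGCATGCGCgcgtgagcaa
TIMM8B: cacacccgtcGCGCATGCGCaaacacagct
TIMM13: ggtgcctcgtGCGCATGCGCggcaggccct
CHCHD4: cagtgtttctGCGCATGCGCgcggcgagac

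The other sites shown belong to the genes that, among those holding the core with 1 mismatch, changed rank most in each direction, TOMM40 upwards and PAM16 downwards. Positions in the core are counted from 1 at its 5′ end, with the base of the palindrome first. TOMM40 forms the channel of the TOM gate, and its site, with the change T6G, lay at chr19:45394279-45394308 on the plus strand, at −218 bp from the canonical start and in an intron of another TOMM40 transcript. PAM16 is a subunit of the PAM motor and held 2 neighbouring sites on the minus strand, at chr16:4401327-4401356 with T6C and at chr16:4401348-4401377 with G9C. Their cores were centred at −20 bp and −40 bp from its canonical start, in introns of another PAM16 transcript and of the CORO7-PAM16 read-through gene.
TOMM40: gagccaatagGCGCAGGCGCtgcgagccaa
PAM16, first site: gcgccgtatcGCGCACGCGCtctctgcggc
PAM16, second site: ctgaggcaatGCGCATGCCCagcgccgtat

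In all, the 14 genes held 20 sites, 4 of them exact and 16 with 1 mismatch, and 6 genes held more than 1 site. The numbers, positions and mismatches of sites given here were not taken over all coding genes, so they cannot be read as particular to these genes. A site lay within 200 bp of the canonical start for 10 of the 14 genes. The median distance from a site to the midpoint of its siControl peak was 54.5 bp, and all 20 sites also lay inside the siAATF peak. The mismatch fell on the central pair of the palindrome in most cases, at position 5 in 8 sites and at position 6 in 4. The core is its own reverse complement, so positions 5 and 6 trade places on the other strand. The split between them depends only on reading along the strand of the gene. Position 1 carried it in 2 sites and positions 3 and 9 in 1 each. The substitution seen most often on the strand of the gene was A5C, in 4 sites, and T6G, the same change on the other strand, was seen in 2. The genes with the core were TOMM7, TOMM20 and TOMM40 of the outer gate, the cytosolic TOMM34, TIMM21 and TIMM29 of the inner membrane translocases, PAM16, GRPEL2 and HSPA9 of the motor, TIMM8B, TIMM9 and TIMM13 among the small chaperones, CHCHD4, and HSPE1. HSPD1 was counted as without the core because its chosen peak lay at a distant start, while the peak it shares with HSPE1 held the core. With the peak nearest to a start chosen instead, 15 members held it in each list.

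Other sequence features were counted in the same peaks. The word CCGGAAGT, which is bound by factors of the ETS family, was present exactly on either strand in the siControl peak of 12 of 36 genes (33.3%, 18.6 to 51), beside 10.9% of all coding genes with a promoter peak. They were TOMM6, TOMM20, TOMM40 and TOMM70, then MTX2, TIMM21, TIMM29, GRPEL2, TIMM8B, TIMM10, TIMM10B and TIMM13. AAGATGGC, a word of the factor YY1, was present for 4 genes (MTX1, TIMM50, HSPA9 and PMPCA), beside 8.47%. A coding gene transcribed in the opposite direction from a start within 1 kb was annotated for 13 of the 38 genes (34.2%, 19.6 to 51.4), beside 13% of all coding genes. The peaks of 14 of the 36 genes (38.9%, 23.1 to 56.5) also lay at the promoter of another coding gene, beside shares over all coding genes having a promoter peak of 24.7% (siControl) and 24.8% (siAATF), and such a peak cannot be assigned to either gene alone. The GC content around the canonical start had a median of 60.5%, beside 61.4% of all coding genes, and the number of CpG steps a median of 71.5, beside 67.

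**Figure D2:**
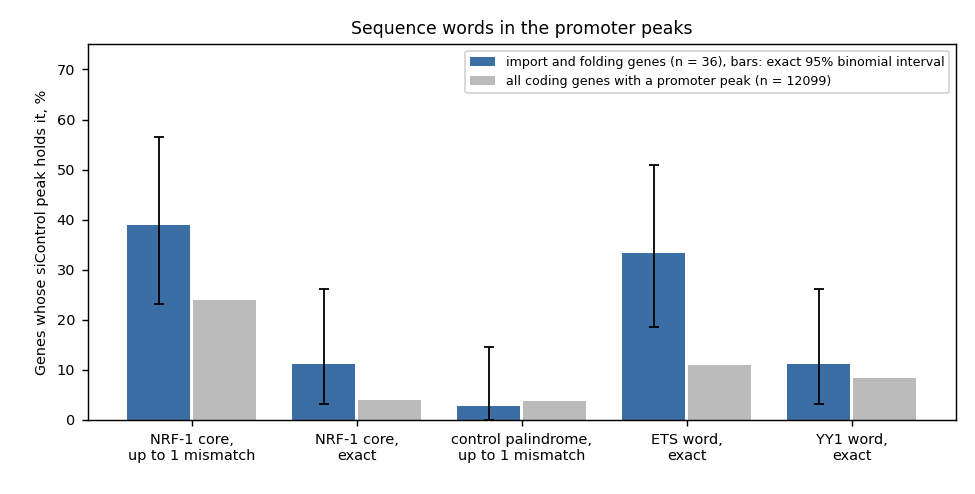
Share of genes, in %, whose siControl promoter peak held each sequence word, for the 36 import and folding genes (blue, with exact 95% binomial intervals over genes) and for all 12099 coding genes with a promoter peak (grey). The NRF-1 core at up to 1 mismatch reached 38.9% against 23.9% and the ETS word 33.3% against 10.9%. The interval of the core, 23.1 to 56.5, included 23.9%. The control palindrome was at 2.78% (1 gene) against 3.68%.

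Peaks were then compared by strength. Fold enrichment is the signal of a peak over the local background of its own library, and −log10 q states how firmly the peak stands out from that background. In lists of broad peaks both are averages over the called region, not values at a summit, so they also depend on where the call ends. As both depend on the library as well, peaks were ranked within their list on a percentile scale on which the weakest peak has 0 and the strongest 100, and a change is the siAATF rank minus the siControl rank, in points. By fold enrichment the 36 genes had a median rank of 70.3 in siControl (95% interval 55.7 to 85.9), beside 63.4 for all coding genes with a promoter peak. In siAATF the median was 68.1 (55.6 to 78.1), beside 64.4. By −log10 q the medians were 72.5 (56.9 to 86.2) and 75.8 (53.9 to 85.7), beside 65 and 66.1. All 4 intervals included the median of all coding genes.

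The members spread over nearly the whole list, from rank 13 to 98.5 in siControl and from 2.61 to 99.9 in siAATF by fold enrichment. The 99.9 is that of HSPD1, whose chosen peak lay at a distant start shared with MOB4. Its peak at the start shared with HSPE1 ranked 71.3 in siControl and 71.4 in siAATF. A rank over 90 was reached by 11 of 36 genes in siControl (30.6%, 16.3 to 48.1), beside 13.9% of all coding genes with a promoter peak, and by 9 in siAATF, beside 14.3%. By −log10 q it was reached by 7 genes in siControl, beside 15.8%, and by 8 in siAATF, beside 16.5%. The counts by fold enrichment include HSPD1, taken by its peak at the MOB4 promoter. The measures ordered the genes in related but different ways, with a Spearman rho between them of 0.75 over the 36 genes in siControl and 0.716 in siAATF (0.795 and 0.773 over all coding genes). Wide peaks tended to have the higher −log10 q, with a rho of 0.556 and 0.508, beside 0.497 and 0.518 over all coding genes. These correlations are across genes that share a library and are descriptions only.

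**Figure D3:**
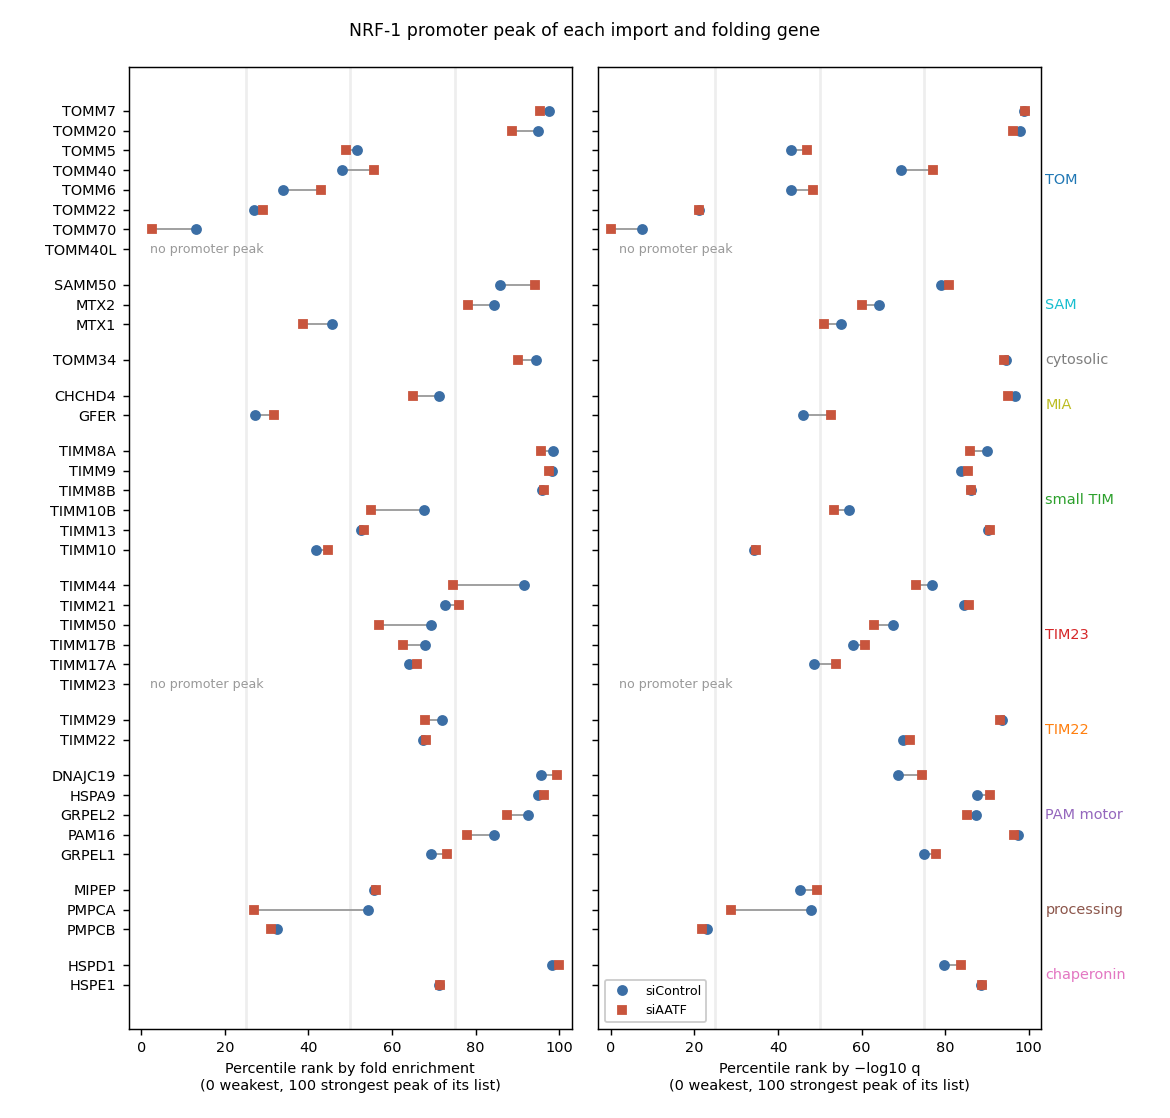
Percentile rank of the promoter peak of each of the 38 genes, by fold enrichment (left) and by −log10 q (right), in siControl (blue circles) and siAATF (red squares), ordered by the complex served. TOMM7 and TOMM20 sit near the right edge while TOMM22 and TOMM70 sit near the left, and most pairs of points lie close together with PMPCA and TIMM44 as the longest lines in the left panel.

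The genes of the outer gate stood far apart from each other. TOMM20, a receptor for precursors with a cleavable targeting sequence, had a peak at chr1:235291719-235292597 in siControl, with a fold enrichment of 9.46, a −log10 q of 85.1 and a rank of 95. In siAATF its peak at chr1:235291683-235292643 had a fold enrichment of 8.24, a −log10 q of 71.2 and a rank of 88.7. TOMM7, a small subunit that helps the complex to assemble, had a peak at chr7:22862020-22862859 with a fold enrichment of 9.98 and a −log10 q of 90.5 in siControl, and its counterpart at chr7:22861967-22862880 had 8.99 and 82.3. TOMM7 thus ranked 97.6 and 95.5 by fold enrichment and 98.9 and 99 by −log10 q, the highest −log10 q of any member in each list. Both genes held the core with 1 mismatch.

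The remaining subunits ranked near or below the middle. TOMM22, the central receptor, had the narrowest siControl peak of the set, 345 bp at chr22:39077768-39078112, with a fold enrichment of 4.46 and a rank of 27.1. In siAATF it was 584 bp wide at chr22:39077805-39078388, with the same fold enrichment of 4.46 and a rank of 29.1. TOMM70, the receptor for carrier proteins without a cleavable sequence, had the weakest peak of the members in both lists. It ranked 13 in siControl at chr3:100119606-100120273 (fold enrichment 3.8, −log10 q 2.06) and 2.61 in siAATF at chr3:100120045-100120694 (fold enrichment 3.14, −log10 q 1.06). These peaks shared only 229 bp, the siAATF peak no longer covered the canonical start of TOMM70, and both also lay at the promoter of LNP1, transcribed the other way.

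TOMM40, the channel, had a broad peak of 1315 bp in siControl and 1303 bp in siAATF. Its rank was 48 and 55.6 by fold enrichment and 69.4 and 77.1 by −log10 q, the largest change towards a higher −log10 q rank among the members. TOMM5, a small subunit, ranked 51.7 and 49. TOMM6, another small subunit, ranked 33.9 and 43, but its peak lay upstream, ended 40 bp before the canonical start in siControl and 63 bp before it in siAATF, and also lay at the promoter of FRS3. Both measures placed TOMM6 higher in siAATF, by 9 points and 5.23 points. For TOMM40L, a close relative of the channel gene, the nearest peak lay 23.5 kb upstream in siControl and 23.6 kb in siAATF. Its start region held 26 CpG steps, the fewest of the 38 genes.

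The SAM genes and the cytosolic cochaperone TOMM34 ranked from the middle to the top. SAMM50, which forms the insertion channel of SAM, ranked 85.9 in siControl and 94.1 in siAATF by fold enrichment, and 79.1 and 80.9 by −log10 q. MTX2, its metaxin partner, ranked 84.5 and 78.1. MTX1 ranked 45.7 and 38.7, with a peak that also served the THBS3 promoter. TOMM34, which binds precursors and chaperones in the cytosol, ranked 94.4 and 90.1, and 94.5 and 94 by −log10 q.

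The genes of the inner membrane translocases lay closer together than those of the outer gate. TIMM17A and TIMM17B, alternative channel subunits of TIM23, ranked 64 and 67.9 in siControl and 65.9 and 62.6 in siAATF. TIMM21 ranked 72.8 and 76.1. The peaks of TIMM17B and TIMM21 also lay at the promoters of PQBP1 and FBXO15, respectively, in both lists. TIMM50, the receptor that takes over precursors from TOM, ranked 69.3 and 57. TIMM44, the anchor of the motor at the TIM23 channel, had a peak at chr19:8008256-8009000 in siControl with a fold enrichment of 9.03 and a rank of 91.7, and at chr19:8008172-8009118 in siAATF with 7.2 and a rank of 74.7. That change of −16.9 points was the largest among the translocases of both membranes, but by −log10 q TIMM44 moved from rank 76.9 to 72.9, a change of −3.97 points, while its peak was 745 bp wide in siControl and 947 bp in siAATF.

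The TIM22 complex inserts carrier proteins into the inner membrane. Its channel gene TIMM22 ranked 67.4 and 68.2, and its subunit gene TIMM29 ranked 71.9 and 68. By −log10 q TIMM29 ranked 93.7 and 93.1, the highest of the inner membrane genes, with a wide peak of 1104 bp and 1196 bp shared with YIPF2. TIMM23, the core channel gene, had no promoter peak, and the nearest peak lay 50.7 kb downstream in siControl and 50.6 kb in siAATF. Of the 100-base words read every 10 bases around its starts, 161 of 191 (84.3%) occurred elsewhere in hg19, where a near-identical copy, TIMM23B, is annotated. A 100-base read from such a word, taken alone, cannot be placed in a unique position. The study sequenced in paired-end mode, and pairs of reads were not examined here. The part that repeated sequence played in the missing peak was not tested. Among the other 37 members the highest share of such words was 3.66%, for TOMM6.

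The comparison of the outer with the inner membrane covered 7 TOM genes and 7 TIM23 and TIM22 genes with a peak. By fold enrichment the median rank in siControl was 48 for the outer genes (13 to 97.6) and 69.3 for the inner genes (64 to 91.7), a difference of −21.2 points. In siAATF it was 49 (2.61 to 95.5) and 68 (57 to 76.1), a difference of −19 points. Without the genes whose peak also lay at the promoter of another coding gene, which left 5 outer and 4 inner genes, the differences were −16.6 and −11.4 points. With 7 genes a 95% interval of the median spans the whole range given, so the outer interval contained the inner median in both lists. The difference in medians came with a difference in spread, since 2 outer genes, TOMM7 and TOMM20, ranked above every inner gene in both lists, 5 ranked below every inner gene and 0 lay between. By −log10 q the medians were 43.1 and 70 in siControl and 48.3 and 71.7 in siAATF, with 2 outer genes above, 4 below and 1 within the inner range.

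The change between the lists was small for both membranes. Its median by fold enrichment was −2.12 points for the outer genes (−10.4 to 9) and −3.96 for the inner genes (−16.9 to 3.28), a difference of 1.85 points. By −log10 q the medians were 0.102 and 1.36 points, a difference of −1.26 in the other direction. In each group 4 of 7 genes ranked lower in siAATF by fold enrichment, beside 48.7% of all paired coding genes. By −log10 q 3 of 7 did, beside 44.3%. No gene of either group changed by more than 20 points. Among all paired coding genes 2.83% did so downward and 3.61% upward by fold enrichment, and 2.25% in either direction by −log10 q.

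Among the groups of more than 1 gene, the PAM motor had the highest median by fold enrichment, 92.6 in siControl and 87.4 in siAATF over 5 genes. DNAJC19, a cochaperone of the motor, ranked 95.7 and 99.5, although its −log10 q rank was 68.6 and 74.4, with a peak of 625 bp and 551 bp. HSPA9, the matrix HSP70 that does the pulling, ranked 95 and 96.4. PAM16 showed the reverse order of the measures, with ranks of 84.4 and 77.9 by fold enrichment and 97.5 and 96.5 by −log10 q. GRPEL1 and GRPEL2, nucleotide exchange factors of HSPA9, ranked 69.3 and 92.6 in siControl and 73.2 and 87.4 in siAATF.

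The 6 small TIM chaperones fell into a high and a lower set. TIMM8A ranked 98.5 and 95.6, TIMM9 98.4 and 97.5, and TIMM8B 95.9 and 96.3. The TIMM8B peak covered a promoter shared with SDHD, which encodes a membrane subunit of complex II, so these values belong to both genes. TIMM10, the partner of TIMM9 in the chaperone that carries hydrophobic precursors, ranked 41.8 and 44.6, and TIMM10B, which tethers that chaperone to TIM22, ranked 67.7 and 54.9. TIMM13, the partner of TIMM8A, ranked 52.5 and 53.2 by fold enrichment and 90.2 and 90.8 by −log10 q, with the widest siControl peak of the set at 1362 bp. In the MIA pathway, CHCHD4 ranked 71.2 and 65 by fold enrichment and 96.7 and 95.1 by −log10 q. GFER, the sulfhydryl oxidase that recycles CHCHD4, ranked 27.2 and 31.7, and 46 and 52.8 by −log10 q. The peaks of TIMM9, TIMM10B, CHCHD4 and GFER also lay at the promoters of KIAA0586, ARFIP2, TMEM43 and NOXO1, respectively, in both lists. Their values cannot be assigned to either gene alone.

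**Figure D4:**
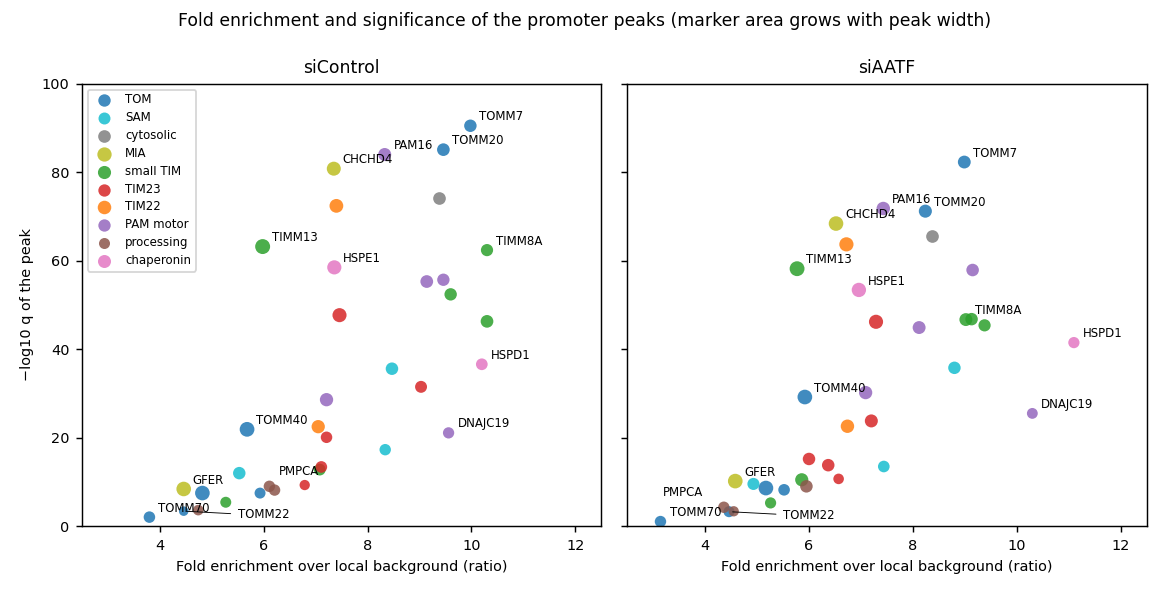
Fold enrichment (ratio over the local background, horizontal) and −log10 q (vertical) of the promoter peak of the 36 genes in siControl (left) and siAATF (right), coloured by complex, with marker area growing with peak width. HSPD1 and DNAJC19 lie to the right at a moderate −log10 q, TIMM13 and CHCHD4 are wide peaks high up at a moderate fold enrichment, and TOMM7 and TOMM20 are high on both axes. The axes of the panels are relative to each library. HSPD1 is drawn at its chosen peak, the one at the MOB4 promoter.

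The chaperonin genes HSPD1 and HSPE1 are transcribed in opposite directions from one shared region. HSPE1 had a peak at chr2:198364357-198365546 in siControl (fold enrichment 7.36, −log10 q 58.5, rank 71.3) and at chr2:198364397-198365621 in siAATF (fold enrichment 6.96, −log10 q 53.4, rank 71.4). Its rank changed by 0.0331 points, the smallest change of the 36 genes. HSPD1 was the only member with 2 promoter peaks in each list. The peak at its canonical start is the one it shares with HSPE1. The one chosen for HSPD1 by its higher fold enrichment lay at a distant alternative start shared with MOB4, at chr2:198380395-198381095 in siControl (fold enrichment 10.2, rank 98.3) and at chr2:198380402-198381022 in siAATF (fold enrichment 11.1, rank 99.9). The high rank of HSPD1 therefore belongs to the peak at the MOB4 promoter, not to the one at the shared chaperonin start.

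The peptidases that cut off targeting sequences ranked lower, with a group median of 54.3 in siControl and 31.1 in siAATF over 3 genes. PMPCA, the alpha subunit of the matrix processing peptidase, had a peak at chr9:139304634-139305292 in siControl with a fold enrichment of 6.11, a −log10 q of 9.02 and a rank of 54.3. In siAATF the peak at chr9:139304715-139305365 had a fold enrichment of 4.36, a −log10 q of 4.29 and a rank of 27.1. The change was −27.2 points by fold enrichment and −19.1 by −log10 q, the largest of the set by both measures. The peak also lay at the promoter of ENTR1, transcribed the other way. Its partner subunit gene PMPCB ranked 32.4 and 31.1, and the intermediate peptidase gene MIPEP 55.7 and 56.1.

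Over the whole set the order of the genes was largely kept between the lists. The Spearman rho of the ranks in siControl and siAATF was 0.96 over 36 genes by fold enrichment and 0.988 by −log10 q, beside 0.919 and 0.977 over all coding genes with paired peaks. The median change by fold enrichment was −1.11 points (−5.21 to 1.33, single genes from −27.2 to 9), beside 0.19 over all 11566 paired coding genes. By −log10 q it was 0.213 points (−1.37 to 1.82, single genes from −19.1 to 7.72), beside 0.472. The medians of the measures differed in sign, and both intervals included 0.

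A lower rank in siAATF was found for 19 of 36 genes by fold enrichment, beside 48.7% of all paired coding genes, and for 17 by −log10 q, beside 44.3%. A change of more than 20 points by fold enrichment was downward for 1 gene, PMPCA, beside 2.83%, and upward for 0 genes, beside 3.61%. By −log10 q a change of more than 20 points in either direction was found for 0 genes, beside 2.25%. The median size of the change regardless of direction was 3.9 points, beside 5.08. The changes by the 2 measures had the same sign for 30 genes (83.3%) and opposite signs for 6, beside 84.2% of all paired coding genes with the same sign. By fold enrichment the median change was −1.49 points over the 14 genes with the core (single genes from −6.49 to 7.6). Over the 22 without it the median was −0.46 (single genes from −27.2 to 9). Among all paired coding genes the medians were −0.488 with the core (single genes from −36.5 to 36.7) and 0.687 without it (−64.1 to 57.5). The extremes in both directions were thus genes without the core, in the set as among all paired coding genes. By −log10 q the highest change, 7.72 points for TOMM40, was that of a gene with it.

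**Figure D5:**
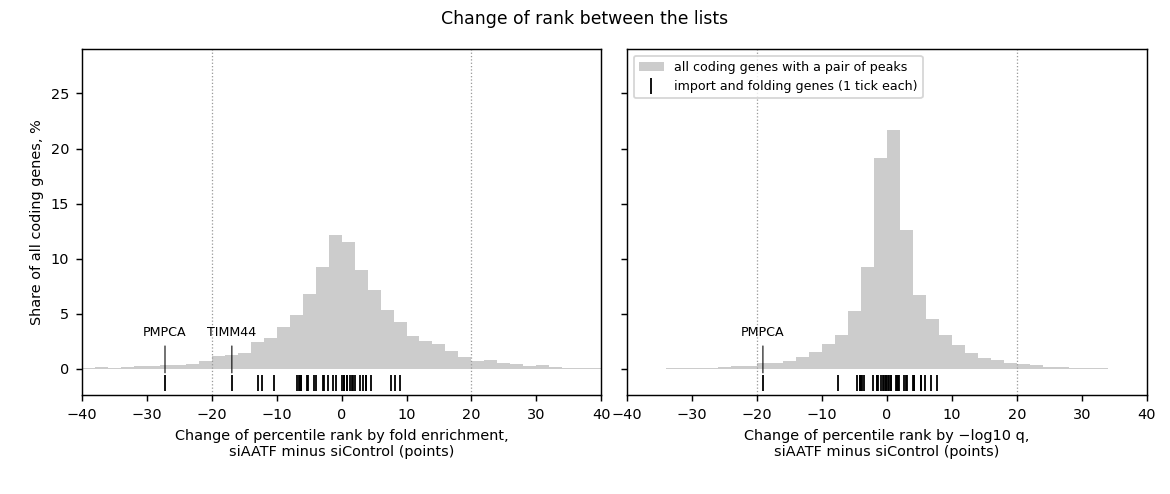
Change of percentile rank from siControl to siAATF, in points, by fold enrichment (left) and by −log10 q (right), as the share of all 11566 paired coding genes in % (grey histogram) with 1 tick for each of the 36 import and folding genes. Dotted lines mark 20 points in either direction. PMPCA at −27.2 is the only tick beyond them in the left panel, and 0 ticks lie beyond them in the right panel.

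At the median, genes with the core ranked higher than those without it. In siControl the 14 genes with the core had a median rank of 88.5 by fold enrichment (71.2 to 95.9) and 89.3 by −log10 q (84.4 to 97.5), while the 22 genes without it had 65.7 (41.8 to 84.5) and 56 (43.1 to 70). The 22 genes include HSPD1, taken by its peak at the MOB4 promoter. Among all coding genes the medians were 79.8 with the core and 56.3 without it by fold enrichment, and 91.4 and 55.8 by −log10 q. The core was searched over the whole peak, and the peaks that held it were wider at the median. The median width was 924 bp among the 14 genes (single genes from 819 to 1362) and 680 bp among the 22 others (single genes from 345 to 1292). The part that width played in the difference of ranks was not tested. TIMM8A at rank 98.5 was the highest member by fold enrichment in siControl and did not hold these letters in its peak, which says nothing about the binding of the factor there.

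A further 28 genes of the same pathway, outside the 38, were read in the same way. They cover other import subunits, the inner membrane insertase, further matrix chaperones and peptidases, quality control proteases and cristae organisation. Of these, 25 had a promoter peak in both lists (89.3%, 71.8 to 97.7), beside 59.4% of all coding genes. Their median rank by fold enrichment was 78.5 in siControl (63.3 to 89.7), beside 63.4 for all coding genes with a promoter peak. In siAATF their median rank was 78.4 (67 to 89.9), beside 64.4. Their median change was 0.93 points (−2.29 to 4.72), beside 0.19. In siControl the core with up to 1 mismatch was in 10 of 25 peaks (40%), beside 23.9% of all coding genes with a promoter peak. The ETS word was in 3 of 25 (12%), close to the 10.9% of all coding genes. DNAJC15, a cochaperone of the motor, APOOL, a cristae factor, and TIMM23B, the copy of TIMM23, had no promoter peak in either list. Of the 100-base words around the starts of TIMM23B, 84.3% occurred elsewhere in hg19, as for TIMM23. A rank lower by more than 20 points was found for 2 of 25 (8%, 0.984 to 26), beside 2.83% of all paired coding genes. They were MTX3, a metaxin relative, from 72 to 51.9, and IMMP1L, a subunit of the inner membrane peptidase, from 39.2 to 11.1. A rank higher by more than 20 points was found for 0, beside 3.61%.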

How the data were processed

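NRF-1 ChIPmentation libraries of U251 cells, named so by the sample labels although the design text gives U138, were represented by 1 broadPeak list per condition. Per the study's methods, reads were aligned with Bowtie2 to hg19 and peaks called with MACS2 in an ATAC-seq pipeline with default settings. The protocol speaks of duplicates, and whether reads were pooled is not given in the sources used here. The authors deposited start and end, the fold enrichment (a ratio over local background), −log10 p, −log10 q and a display score, the whole part of −log10 q times 10, which was not used further. Depth is unknown, and it would move −log10 q and the number of weak peaks.

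Genes were taken from GENCODE release 44 lifted to GRCh37, and peaks with at least 1 base within 1 kb of a protein-coding start were assigned to the gene. With several, the peak of highest fold enrichment was used, and the peaks of a gene were paired if they shared 1 base. Shares have exact Clopper-Pearson 95% intervals and medians binomial order-statistic 95% intervals, both over genes. Coordinates are 1-based on hg19, and sequences came from the GRCh37 assembly. Analyses used Python 3.11.15, numpy 2.4.6, scipy 1.17.1, pandas 2.3.3, pysam 0.24.0 and matplotlib 3.10.9. The scripts were tested on simulated peaks. The members, the gene lists, the sequence words and the measures were chosen with earlier results of these data known, so they are not independent of them. All members were named, and of the other pathway genes those without a peak in either list or with a change above 20 points. Sequences were printed for members with an exact core and for those with the largest rank change in each direction among members holding the core with 1 mismatch.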

Additional observations from a re-analysis of the deposited data

How the results depend on the processing

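No paired analysis was possible because the conditions had a single list each. Of 154 values of 17 results recomputed under 13 alternatives, 140 stayed and 14 moved. Staying meant within the counting interval of a median, within 1.5 times for counts, or within 5.08 points for differences of medians. The 5.08 points are the median size of the rank change over all paired coding genes. With 7 genes the interval is the whole range, so outer medians as low as 28.8 in siControl and 31.6 in siAATF counted as staying. Promoters of 500 bp or 2 kb and the midpoint rule gave the same member values as the main setting. The count of 140 is therefore not a measure of stability. The numbers of members with a promoter peak ranged from 33 to 36 in siControl and from 32 to 36 in siAATF, the lowest with −log10 q of at least 5, where TOMM22, TOMM70 and PMPCB were lost in both lists and PMPCA in siAATF. The outer minus inner difference ranged from −26.9 to −16.6 points in siControl and from −23.4 to −11.4 in siAATF. It was −26.9 in siControl when peaks were chosen and ranked by −log10 q. Ranked among genes rather than peaks, the median of the members in siAATF was 54.9, a shift made by the scale itself, on which the median of all genes is 50. With the exact core alone, 4 members held it in siControl and 4 in siAATF. Leaving out members whose peak also lay at the promoter of another coding gene, an alternative added after the data had been seen, left 22 members, of which 8 held the core in siControl and 8 in siAATF, and gave an outer minus inner difference of −11.4 points in siAATF, with PMPCA removed by construction. The median change of the members ranged from −1.63 to 0.213 points and the outer minus inner change from −2.15 to 3.93, so both took either sign. The count of members lower by more than 20 points was 0 by −log10 q and 2 when ranked among genes. With −log10 q of at least 5 it was 1, but PMPCA had no siAATF peak there, so the gene counted was another member. Unknown depth and single lists limit every comparison between conditions.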
